A study of Mus musculus with 16 samples.

Results

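The 8 genes described here encode the membrane skeleton and surface proteins of the red cell. They are Slc4a1, Ank1, Sptb, Epb41, Epb42, Rhd, Rhag and Kel, chosen by name from the 49585 genes of the count tables, and all 8 were found. The libraries came from mouse neutrophils isolated by flow cytometry, in a study of the oxygen sensor PHD2 (gene Egln1) and the transcription factor HIF2α (gene Epas1). There were 16 RNA sequencing libraries, 4 in each of 4 groups. The group P2KO carried floxed PHD2 and Vav:cre, and P2H2KO carried floxed PHD2, floxed HIF2 and Vav:cre. Vav:cre is active in the blood lineages generally, so a deletion is not expected to be limited to neutrophils. P2WT and P2H2WT, the controls of the P2 and the P2H2 line, are labelled only as wild type. All mice were C57BL/6, aged 8 to 12 weeks, and the tissue was bones. Titles end in m or f, and each title has its own number, which is used below to name the library (P2KO 6, for example). Those ending in f were P2KO 9, P2WT 7 and 10, P2H2KO 15 and 17, and P2H2WT 16. This suffix was therefore not balanced between knockouts and controls in either line. Nothing says that each library came from a separate mouse, so p-values measure the spread between these libraries.

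The red cell keeps its shape through a flat protein lattice under its membrane. Spectrin, a long flexible rod, forms the strands, and the product of Epb41 ties them to actin at their ends. Ankyrin fastens spectrin to the anion exchanger band 3, and the product of Epb42 strengthens that link, while the Rh proteins and the Kell antigen sit in the same membrane complexes. These genes are switched on as erythroid precursors mature in the bone marrow, and GATA1 and KLF1 are well-known activators of erythroid genes.

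The promoters are shown as a description, and their part in the levels was not tested. RefSeq (GRCm38.p6) gave promoter sequence for 6 members, with 3 entries for Epb41. GATA words were searched on both strands in the 250 bases before the start. The first spelling was AGATAA, the second spelling was AGATAG, the third spelling was TGATAA and the last spelling was TGATAG. They occurred in 26.5% of 32851 promoters of that length, and at least once for 5 of the 6 members (Rhd, Rhag, Kel, Epb42 and 1 of the 3 entries of Epb41). The word lay 43 bases before the start of Rhd, 31 before that of Rhag, and 56 and 19 before that of Kel. The word CCNCNCCC of the CACCC box, which also takes in GC-rich boxes, occurred in 45.9% of promoters. Sptb had no GATA word and 3 such words, 2 of them overlapping. The Epb41 entries had 3, 0 and 6 such words with overlaps counted, and Rhd, Rhag, Kel and Epb42 had 0. The hypoxia response core, ACGTG or GCGTG, occurred in 38.6% of promoters and in 0 of the members' entries. The lines below give up to 150 bases before the start, with the GATA words of Rhd, Rhag and Kel and the CACCC-box words of Sptb in capitals. The word of Rhag and the overlapping pair of Sptb are read on the opposite strand. The last 23 bases for Rhag and 13 for Kel are left out, because GENCODE places the start further upstream than RefSeq does. The last printed base of Kel, which is also the last base of its second GATA word, is the GENCODE start itself. For Epb42 the GENCODE start lies 195 bases upstream of the RefSeq start, so most of its searched bases lie inside the gene as GENCODE has it, but its GATA word, 226 bases before the RefSeq start, lies upstream of both. The Epb41 entry with the word has its GENCODE start 8 bases upstream. The windows are chr4:134864386-134864535 (plus strand) for Rhd, chr17:40810999-40811125 (plus strand) for Rhag, chr6:41704339-41704475 (minus strand) for Kel and chr12:76710548-76710697 (minus strand) for Sptb. A match is a description of the letters and not a measured binding site.
Rhd: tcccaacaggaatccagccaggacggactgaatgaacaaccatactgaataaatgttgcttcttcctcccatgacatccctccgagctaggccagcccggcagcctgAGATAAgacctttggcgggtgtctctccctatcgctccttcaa
Rhag: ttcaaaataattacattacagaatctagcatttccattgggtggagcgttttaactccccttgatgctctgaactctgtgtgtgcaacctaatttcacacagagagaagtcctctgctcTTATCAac
Kel: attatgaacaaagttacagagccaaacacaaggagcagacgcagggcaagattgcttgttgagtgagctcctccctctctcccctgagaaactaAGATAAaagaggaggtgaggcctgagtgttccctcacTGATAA
Sptb: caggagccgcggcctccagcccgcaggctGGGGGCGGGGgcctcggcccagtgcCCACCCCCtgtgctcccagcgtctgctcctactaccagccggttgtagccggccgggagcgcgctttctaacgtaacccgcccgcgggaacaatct

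The libraries held between 23450746 and 28601284 counts. They contained abundant erythroid RNA despite the neutrophil label. Levels are given as CPM, the count of a gene relative to the scaled library size. The 6 measured erythroid markers (Hba-a1, Hba-a2, Hbb-bs, Hbb-bt, Alas2 and Klf1) summed to between 18544 and 39809 CPM, and 12 neutrophil markers to between 31824 and 80795 CPM. No measured marker of any list was at 0 in every library of a group. Marrow macrophage markers summed to 590.2 to 1140 CPM, B cell markers to 194 to 673 CPM, megakaryocyte and platelet markers to 99.9 to 312 CPM, and T and NK cell markers to 44.8 to 72.3 CPM. Bone stroma markers summed to 480.0 to 1347 CPM in the P2 line and 166 to 312 CPM in the P2H2 line, without overlap. Endothelial markers summed to 68.5 to 143 CPM in the P2 line and 53.6 to 66.2 CPM in the P2H2 line. Gene-level counts did not check the deletions, since deleted exons are not counted apart. Egln1 was at 49.5 ± 6.40 CPM in P2KO and 48.6 ± 2.20 in P2WT, and Epas1 was at 5.65 ± 2.17 in P2H2KO and 3.55 ± 1.02 in P2H2WT (SD, n = 4). Groups below are therefore those of the libraries as labelled.

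Together the 8 genes took between 0.696% and 1.46% of all counts in a library. Slc4a1, the band 3 anion exchanger, was at 6414 ± 1185 CPM (SD, n = 16) and ranked from 4th to 14th among all genes of a library. The other levels were 1494 ± 353 CPM for Sptb, 1019 ± 226 for Epb41, 857 ± 203 for Ank1, 630.0 ± 118 for Rhd, 468 ± 104 for Epb42, 368 ± 74.1 for Rhag and 199 ± 50.5 for Kel. No member fell below 3097 counts in any library, so counting error was small beside the spread between libraries. In these bulk libraries, fewer cells of a type and less RNA per cell cannot be told apart.

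**Figure D1:**
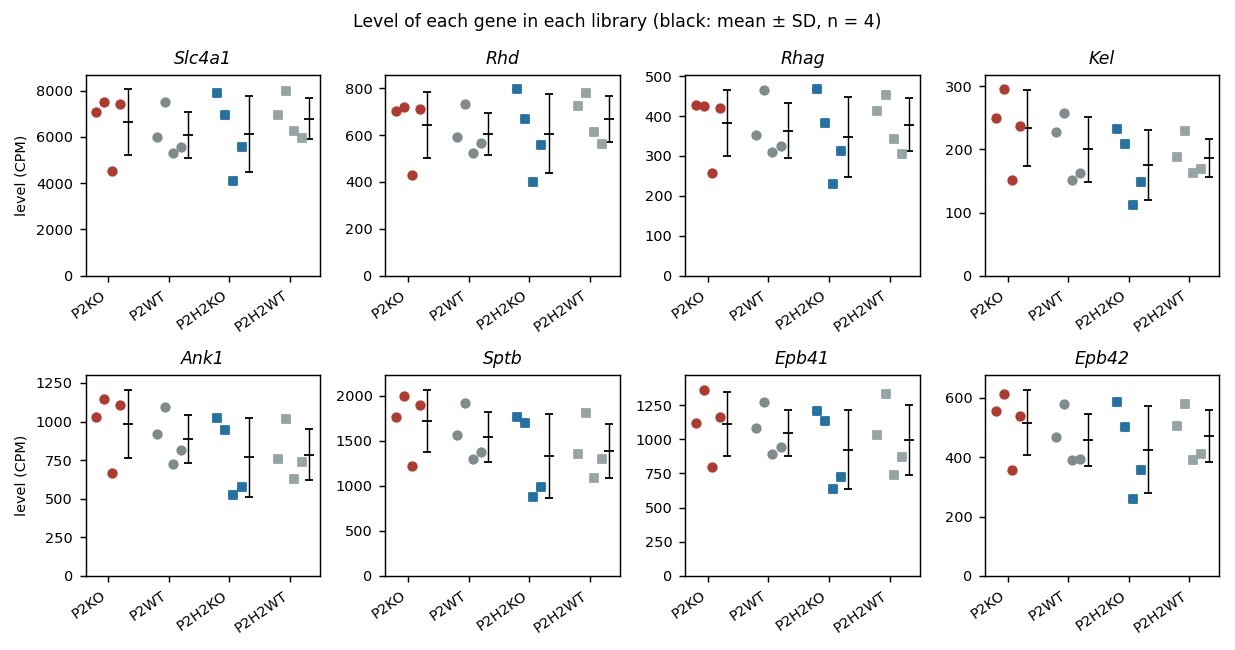
Level of each gene in CPM (vertical axis, from 0) in each of 16 libraries, with 1 point per library by group and the mean ± SD of each group in black. The groups overlap for all 8 genes, and P2KO 6 and P2H2KO 15 are the lowest libraries of their groups for each gene.

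Per kilobase of annotated exon, the order of levels ran from the transporter and Rh genes down to the ankyrin gene. Slc4a1 stood at 1311 ± 242 CPM per kb (SD, n = 16), Rhd at 395 ± 74.3, Rhag at 157 ± 31.7, Sptb at 123 ± 29.1 and Epb42 at 86.4 ± 19.3. Kel stood at 71.7 ± 18.2, Epb41 at 63.9 ± 14.2 and Ank1 at 63.4 ± 14.98 CPM per kb. The first 5 steps of this order held in 16 of 16 libraries, Kel lay above Epb41 in 13, and Epb41 lay above Ank1 in 9, so the last pair did not differ beyond the spread. The order depends on the length used. Per kilobase of coding sequence in the longest transcript, Epb41 was in the third place at 391 ± 86.8 CPM per kb and Kel was last at 93.0 ± 23.6. The annotated exons of Epb41 total 15942 bases and its coding sequence 2607.

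**Figure D2:**
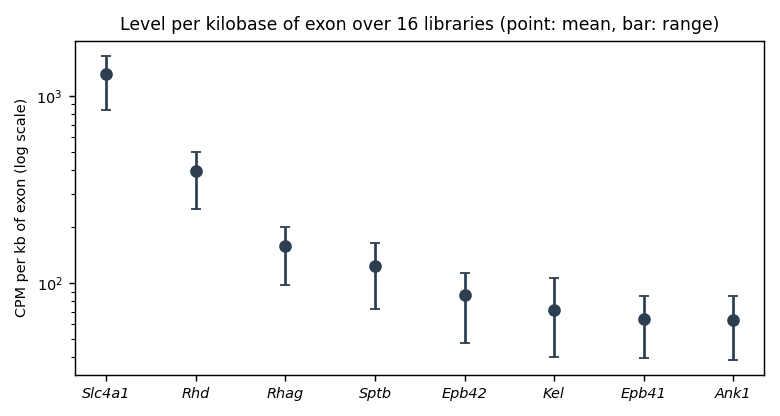
Level per kilobase of exon in CPM per kb (log scale) for each gene, with the mean of 16 libraries as a point and the lowest to highest library as a bar. Slc4a1 at 1311 CPM per kb stands above Rhd at 395, and Kel, Epb41 and Ank1 lie close together.

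The membrane transporters and antigens come first. Slc4a1 (chromosome 11, 102348824 to 102366203, minus strand, GRCm38) exchanges chloride for bicarbonate and anchors the skeleton. Its levels were 7062, 7530.1, 4543 and 7433 CPM in P2KO 1, 5, 6 and 9, and 5985, 7526, 5296 and 5585 CPM in P2WT 3, 4, 7 and 10. In the P2H2 line they were 7890.2, 6952, 4113 and 5549.6 CPM in P2H2KO 11, 12, 15 and 17, and 6947, 7992, 6255 and 5971 CPM in P2H2WT 13, 14, 16 and 18. P2KO 6 and P2H2KO 15 were the lowest libraries of their groups, and the knockout libraries overlapped with their controls in each line. Rhd (chromosome 4, 134864536 to 134896172, plus strand) encodes the mouse Rh antigen protein. Its levels were 703, 720.4, 430.4 and 711 CPM in P2KO 1, 5, 6 and 9, and 589.7, 734, 524 and 568 CPM in P2WT 3, 4, 7 and 10. They were 795, 669.8, 398 and 559 CPM in P2H2KO 11, 12, 15 and 17, and 722, 779, 613 and 564 CPM in P2H2WT 13, 14, 16 and 18. The same 2 libraries were low, and the groups overlapped.

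Rhag (chromosome 17, 40811126 to 40840754, plus strand) encodes the Rh-associated glycoprotein, needed for the Rh complex to reach the surface. It ranged from 258 to 428 CPM in P2KO, 311 to 464 in P2WT, 229 to 467 in P2H2KO and 306 to 453 in P2H2WT. Kel (chromosome 6, 41686330 to 41704339, minus strand) encodes the Kell surface endopeptidase. It ranged from 151 to 295 CPM in P2KO, 152 to 258 in P2WT, 111 to 232 in P2H2KO and 163 to 229.5 in P2H2WT. For both genes P2KO 6 and P2H2KO 15 were again the lowest of their groups.

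Among the skeleton genes, Sptb (chromosome 12, 76580488 to 76710547, minus strand) encodes erythroid beta spectrin. Its levels were 1767, 1991, 1218 and 1899 CPM in P2KO 1, 5, 6 and 9, and 1566, 1922, 1293 and 1378 CPM in P2WT 3, 4, 7 and 10. They were 1763, 1695, 879.9 and 987 CPM in P2H2KO 11, 12, 15 and 17, and 1351, 1804, 1086 and 1303 CPM in P2H2WT 13, 14, 16 and 18. P2H2KO fell into 2 high and 2 low libraries, and the low ones were 15 and 17, whose titles end in f. Libraries ending in f were also the lowest of P2WT (7 and 10) and of P2H2WT (16). That of P2KO (9) was not low. Ank1 (chromosome 8, 22974844 to 23150497, plus strand) encodes erythroid ankyrin. Its levels were 1029, 1147, 666 and 1105 CPM in P2KO 1, 5, 6 and 9, and 919, 1093, 728 and 813 CPM in P2WT 3, 4, 7 and 10. They were 1026, 945, 527 and 575 CPM in P2H2KO 11, 12, 15 and 17, and 759, 1017, 628 and 738 CPM in P2H2WT 13, 14, 16 and 18. The pattern over libraries was that of Sptb, and the groups overlapped.

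Epb41 (chromosome 4, 131923413 to 132075321, minus strand) encodes the linker that joins spectrin to actin. It ranged from 801 to 1363 CPM in P2KO, 891 to 1269.6 in P2WT, 634 to 1209 in P2H2KO and 741 to 1333 in P2H2WT. Epb42 (chromosome 2, 121017891 to 121037072, minus strand) encodes a protein that binds band 3 and ankyrin. It ranged from 358 to 613 CPM in P2KO, 392.4 to 579.9 in P2WT, 259 to 585 in P2H2KO and 391.7 to 578 in P2H2WT. The groups overlapped for both genes. The exons of Ank1 share 862 bases with Gm15816 on the other strand, those of Epb41 overlap Gm10300 and Gm13063, and those of Sptb share 1 base with Plekhg3. The use of strand in counting is not given in the sources used here, so reads there cannot be told apart.

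No change with PHD2 genotype was called for any member. In P2KO against P2WT all 8 log2 differences were positive, between 0.08 and 0.23 with a median of 0.15, and 0 of 8 passed (edgeR quasi-likelihood test, all adjusted p = 1.0). Over all genes the median was 0.02 and 0.0437% of 13734 genes were called. At an unadjusted p under 0.05, edgeR called 0 members and 3.49% of all genes, and DESeq2 called 0 members after adjustment. The groups did not overlap for 2.25% of genes and for 0 members. For Slc4a1 the difference was 0.13 ± 0.19 (SE), with a 95% interval from -0.30 to 0.56. For Sptb it was 0.17 ± 0.18, with an interval from -0.23 to 0.57. The widest upper bound was that of Kel, at 1.67-fold, and the lowest bound was that of Rhag, at 0.794-fold. The sizes depended on single libraries, and each library except P2WT 3, left out alone, moved the value of at least 1 member by more than 1.5 times. For Slc4a1, Ank1 and Kel the differences were 0.28, 0.31 and 0.39 without P2KO 6, and 0.25, 0.28 and 0.38 without P2WT 4. They were 0.070, 0.083 and 0.10 without P2KO 5, and 0.070, 0.075 and 0.12 without P2WT 7. The lowest values were 0.092 for Sptb, 0.033 for Rhd and 0.015 for Rhag without P2WT 7, and Epb41 turned to -0.015 without P2KO 5. No member was called with any 1 of the 8 libraries left out. P2KO 6 had the lowest erythroid marker sum of its group, 18544 CPM, and the highest neutrophil marker sum, 70605 CPM. It also had 11136 CPM of the predicted gene Gm42418, against 2562 to 7165 CPM in the other libraries. In this comparison the megakaryocyte and platelet markers were positive for 8 of 8 with a median of 0.47, and the marrow macrophage markers for 1 of 9 with a median of -0.29, with 0 called in either list. The part of these in the result was not tested.

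The double-deletion line showed no called change either. In P2H2KO against P2H2WT all 8 log2 differences were negative, between -0.15 and -0.03 with a median of -0.11, and 0 of 8 passed (edgeR, all adjusted p = 1.0). The median over all genes was 0.00, and 0.0744% of 13435 genes were called. At an unadjusted p under 0.05 edgeR called 0 members and 2.63% of all genes, and DESeq2 called 0 members. The groups did not overlap for 1.71% of genes and for 0 members. Slc4a1 differed by -0.15 ± 0.21 (SE), with a 95% interval from -0.61 to 0.32, and Ank1 by -0.03 ± 0.24, from -0.57 to 0.51. The sign rested on single libraries. Without P2H2KO 15 the differences were 0.00 for Slc4a1, 0.12 for Ank1 and 0.10 for Sptb, and without P2H2KO 11 they were -0.29, -0.20 and -0.22. Without P2H2KO 17 Ank1 was at 0.088 and Sptb at 0.065, and without P2H2WT 14 they were at 0.11 and 0.092. Beside these values, the median over the erythroid reference genes was -0.20 with 0 of 6 called, and the neutrophil markers were positive for 12 of 12 with a median of 0.19 and 0 called. The marrow macrophage markers were negative in P2H2KO for 9 of 9, with a median of -0.45, 9 at an unadjusted p under 0.05 and 0 called after adjustment (edgeR). Their sums were 590.2 to 816 CPM in P2H2KO and 830.3 to 1075 CPM in P2H2WT, without overlap. The B cell markers were negative for 8 of 8 with a median of -0.36 and 0 called. Their part in the result was not tested.

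The 2 knockout effects were then compared in a fit of all 16 libraries. The difference of the effects was positive for all 8 genes, between 0.18 and 0.32, and 0 were called (edgeR, all adjusted p = 1.0). Over all genes 0% were called, and 1.51% at an unadjusted p under 0.05, against 0 members. The intervals were wide, from -0.51 to 1.05 at their extremes. For Epb42, with the largest value, the difference was 0.32 ± 0.33 (SE). It was 0.51 without P2H2KO 11, 0.14 without P2H2KO 15 and 0.21 without P2H2WT 14.

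**Figure D3:**
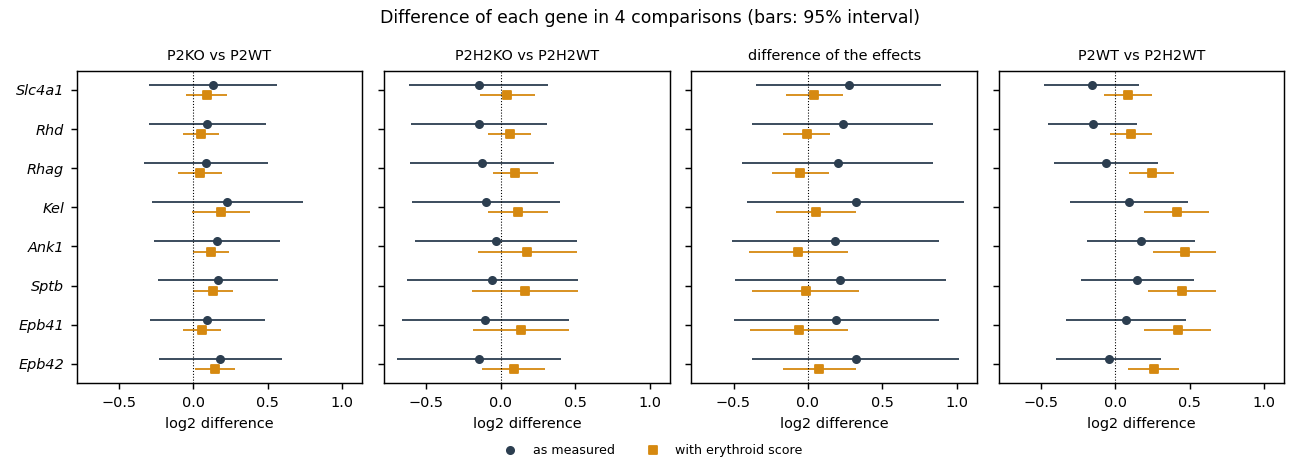
Log2 difference of each gene (horizontal axis) in 4 comparisons, with its 95% interval as a bar, from edgeR as measured (dark circles) and with the erythroid reference score as covariate (orange squares). As measured, all intervals include 0. With the score, Ank1, Sptb, Epb41 and Kel lie at 0.41 to 0.46 in P2WT vs P2H2WT. The intervals of these genes, and of Epb42 and Rhag, lie above 0 in that panel. In P2KO vs P2WT with the score, those of Sptb and Epb42 lie just above 0, without a call after adjustment.

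The members varied together, along with haemoglobin and haem genes. An erythroid reference score was taken as the mean log2 CPM of Hba-a1, Hba-a2, Hbb-bs, Hbb-bt, Alas2 and Klf1. In the P2 line it spanned 10.93 to 11.78 and in the P2H2 line 10.96 to 11.98, and it was lowest in P2KO 6 and P2H2KO 15. Correlations of log2 CPM were computed within each line over 8 libraries, with exact permutation p-values adjusted by Benjamini-Hochberg over 72 relations. Between members in the P2 line, Pearson's r ran from 0.897 to 0.994 with a median of 0.969, and Spearman's rho from 0.81 to 1.0 (28 of 28 pairs called, largest adjusted exact p = 0.00144 for r and 0.0218 for rho). Pairs in the P2H2 line gave r of 0.861 to 0.998 with a median of 0.959, and rho from 0.881 to 1.0 (28 of 28 pairs, largest adjusted exact p = 0.00431 and 0.00790). With the reference score, r was 0.912 to 0.979 for members in the P2 line, and 0.801 to 0.982 for those in the P2H2 line. The corresponding rho was 0.881 to 1.0 and 0.81 to 0.952, and all 8 relations of each line were called (largest adjusted exact p = 0.00790 and 0.0218). Without the 2 libraries farthest from the median of the x measure, all 28 and 8 relations of the P2 line were still called, with r of at least 0.825 and 0.885. In the P2H2 line 22 of 28 and 4 of 8 were still called, with r of at least 0.756 and 0.610. The exact test has fewer permutations over 6 libraries than over 8. The 6 pairs that no longer passed were those of Ank1, Sptb and Epb41 with Rhd and Rhag, with r of 0.756 to 0.852 against 0.861 to 0.906 over 8 libraries. The relations with the score that no longer passed were those of Ank1, Sptb, Epb41 and Kel, with r of 0.610 to 0.798 against 0.801 to 0.931. The values share library composition and depth. Relations within a line were computed only for the members and the score. The share of other gene pairs that would be called is therefore not known, and the counts do not show a trait particular to the members.

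**Figure D4:**
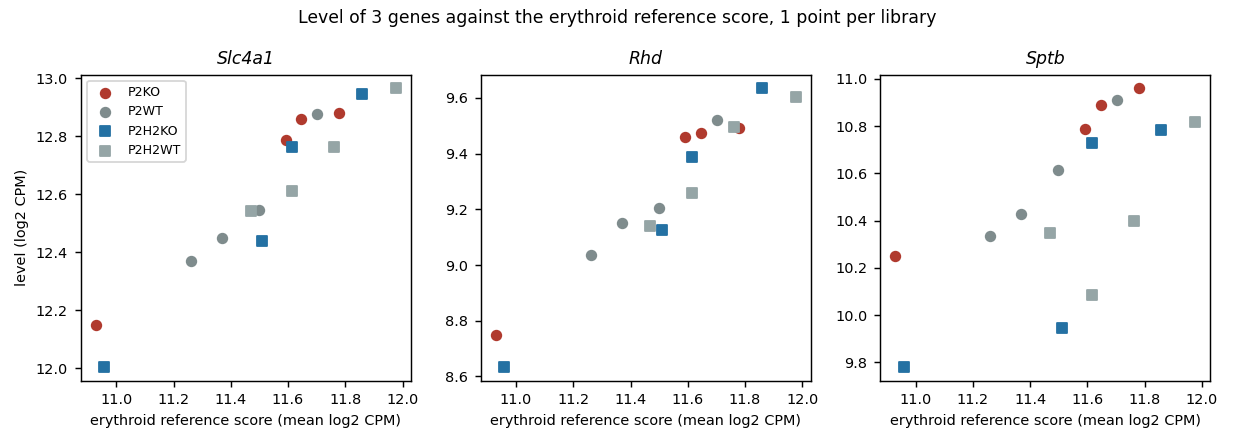
Level of Slc4a1, Rhd and Sptb in log2 CPM (vertical axis) against the erythroid reference score in mean log2 CPM (horizontal axis), 1 point per library, circles for the P2 line and squares for the P2H2 line. Relative to the score, Sptb is higher in the P2 line by a mean log2 difference of 0.41, and Slc4a1 and Rhd by 0.11 and 0.10.

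Genes outside the list with the pattern most like that of Slc4a1 were found by Pearson's r of log2 CPM after removal of the line mean, over 16 libraries and 11448 genes. They included Fech, an enzyme of haem synthesis, with r of 0.992, and Rab3il1, Ptdss2 and Fzr1, with r of 0.993, 0.992 and 0.991. Among members, r with Slc4a1 on this scale was 0.991 for Rhd, 0.985 for Rhag, 0.979 for Epb42, 0.951 for Kel, 0.935 for Ank1, 0.931 for Sptb and 0.922 for Epb41. Those most like Epb41 included Bsdc1, Spdl1, Micall2 and Mns1, with r of 0.973 to 0.971. The members gave r with Epb41 of 0.979 for Sptb, 0.974 for Ank1, 0.958 for Epb42, 0.933 for Kel, 0.922 for Slc4a1, 0.911 for Rhag and 0.904 for Rhd. These values are descriptions without a test.

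No member was called between the control groups. In P2WT against P2H2WT the members' log2 differences ran from -0.16 for Slc4a1 to 0.17 for Ank1, with 4 positive and 4 negative, and 0 of 8 were called (edgeR, adjusted p from 0.725 to 0.946). Of all genes 1.22% were called, and 11.4% at an unadjusted p under 0.05, against 0 members. The groups did not overlap for 7.81% of genes and for 0 members. DESeq2 also called 0 members. The median over the erythroid reference genes was -0.28, with 0 of 6 called. With the erythroid reference score as a covariate, all 8 values were positive and 4 members were called. Ank1 was higher by 0.46 ± 0.10 (SE, 1.38-fold, adjusted p = 0.0312 by edgeR) and Sptb by 0.45 ± 0.10 (1.36-fold, adjusted p = 0.0371). Epb41 was higher by 0.42 ± 0.10 (adjusted p = 0.0440) and Kel by 0.41 ± 0.10 (adjusted p = 0.0408). The values for Epb42 and Rhag were 0.26 and 0.25 (adjusted p = 0.0702 and 0.0579), and those for Rhd and Slc4a1 were 0.10 and 0.09 (adjusted p = 0.323 and 0.475). In that fit 3.69% of all genes were called higher in P2WT. Markers of other cells were also positive there: 8 of 8 for B cells (median 0.53, 0 called), 8 of 9 for marrow macrophages (3 called) and 6 of 6 for endothelium (5 called). Neutrophil markers were positive for 2 of 12 (median -0.34, 0 called), and T and NK cell markers for 3 of 7 (0 called). The rise was thus not particular to the members, and its cause was not tested. The 4 calls of members depended on single libraries. There were 0 without P2WT 3, P2WT 4, P2H2WT 13 or P2H2WT 16, and 1 without P2H2WT 14, although Ank1 stayed between 0.38 and 0.65 and Sptb between 0.35 and 0.64.

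Ratios between members, a measure added after the data had been seen, were compared between the lines with knockouts and controls of a line pooled. The CPM of Sptb was 25.6 ± 0.856% of that of Slc4a1 in the P2 line (SD, n = 8, range 24.41 to 26.8%) and 20.9 ± 2.46% in the P2H2 line (range 17.4 to 24.38%). That of Ank1 was 14.7 ± 0.497% in the P2 line (range 13.7 to 15.4%) and 12.0 ± 1.34% in the P2H2 line (range 10.04 to 13.6%). For both genes the lines did not overlap, though the nearest libraries almost touched. Ratios were computed for the members only, so the share of all genes that would separate the lines in this way is not known. Between the controls alone, the CPM of 7.81% of genes did not overlap. The log2 ratio was higher in the P2 line by 0.30 for each, with an exact permutation p of 0.000155 in 8 libraries against 8, the smallest that 12870 splits can give, and 0.00272 after adjustment over 35 ratio tests. Kel relative to Slc4a1 was higher by 0.27 (adjusted exact p = 0.0181), Epb41 by 0.21 (0.0272) and Epb42 by 0.15 (0.0272), with overlap. Rhag differed by 0.06 (adjusted exact p = 0.134) and Rhd by -0.01 (0.688). The CPM of Rhd was 9.78 ± 0.235% of that of Slc4a1 in the P2 line and 9.85 ± 0.304% in the P2H2 line. Between knockouts and controls the log2 ratios differed by -0.05 to 0.11 and the groups overlapped for all 7 ratios in each line. At 4 libraries against 4 even ratios without overlap did not pass after adjustment, so no test of genotype is drawn from the ratios. The call for Epb41 was lost without P2KO 5, P2KO 6, P2WT 3 or P2WT 4 (adjusted exact p of 0.0571 to 0.0653). That for Epb42 was lost without any of these or P2KO 1 (0.0631 to 0.0653).

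**Figure D5:**
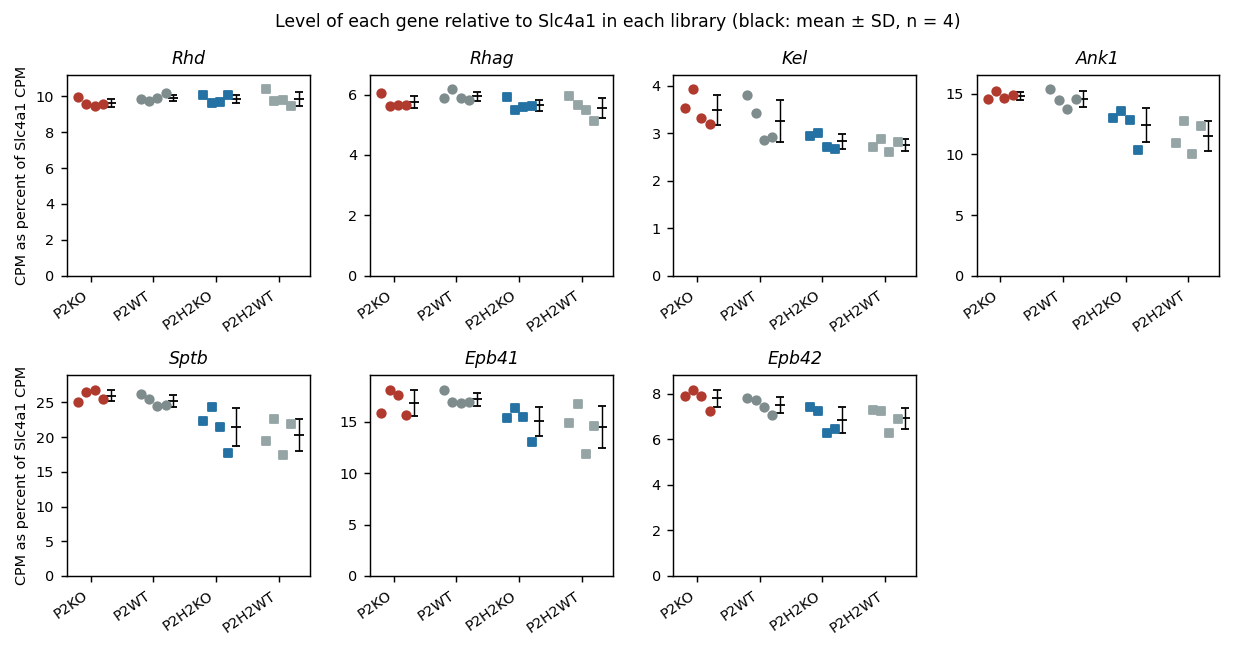
CPM of each gene as a percent of the CPM of Slc4a1 (vertical axis, from 0) in each of 16 libraries by group, with the mean ± SD of each group in black. Sptb lies at 24.41% or above in the P2 line and at 24.38% or below in the P2H2 line, and Rhd lies between 9.44 and 10.4% in all groups.

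Each genotype was then compared alone between the lines. Between the controls, Sptb and Ank1 relative to Slc4a1 were higher in P2WT by 0.32 and 0.34 without overlap. The exact p of 0.0286 is the smallest 4 against 4 libraries can give, and it was 0.0909 after adjustment, so no comparison of this size passed. Between the knockouts they were higher in P2KO by 0.28 and 0.26, with the same p. Relative to the erythroid reference score, all 8 members were higher in the P2 line at 8 against 8 (exact permutation test, adjusted over 40 tests). The differences ran from 0.10 for Rhd (adjusted exact p = 0.0381) to 0.41 for Ank1 and Sptb (0.00622). No share over all genes stands beside this count, since other genes were not set against the score in this way. It therefore does not show a trait particular to the members. The calls for Rhd and Slc4a1 each held without P2KO 5, P2WT 3, P2H2KO 11 or P2H2KO 12. That for Slc4a1 also held without P2WT 10 and that for Rhd without P2H2WT 13, and without any 1 of the other 11 libraries each was lost (adjusted exact p of 0.0506 to 0.0785).

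Several measured features moved with the line. Across 13572 genes, the log2 difference P2WT minus P2H2WT was larger for genes of greater exon length (Spearman's rho = 0.337) and of greater coding length (0.423 over 12444 genes). With the reference score as covariate these were 0.220 and 0.300. Genes are not replicates of a condition, so these values are descriptions. The members with the largest differences include long ones (Epb41 with 15942 exon bases, Ank1 with 13527, Sptb with 12147), while Slc4a1 has 4891, Rhag 2339 and Rhd 1594. By coding length Sptb (6987 bases) and Ank1 (5721) were again the longest, but Epb41 with 2607 bases was shorter than Slc4a1 with 2787. Kel, with 2773 exon bases, is shorter than Slc4a1 and Epb42 (5417). Bone stroma and endothelial marker sums were higher in the P2 line, as given above. The part of length and of these markers in the ratios was not tested, and the line and any difference in handling between the 2 tables cannot be told apart.

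Other genes listed with the same structures gave no calls as measured, and some with the erythroid reference score as covariate. None of 10 other membrane skeleton genes, 15 tested other red cell surface genes or 6 erythroid reference genes passed in any of the 4 comparisons as measured (edgeR, adjusted p under 0.05). In P2KO against P2WT the median log2 difference was 0.13 for the skeleton list and 0.13 for the surface list, against 0.02 over all genes. The genes with the smallest p there were Epb41l5 (0.38 ± 0.27 SE) and Tfrc, the transferrin receptor (0.24 ± 0.15). Epb41l5 was low, at a mean of 2.05 CPM over all libraries. In P2H2KO against P2H2WT the medians were -0.03 and -0.10, and the smallest p values were those of Mpp1 (-0.11 ± 0.09) and Slc29a1 (-0.16 ± 0.17). With the reference score as covariate, P2WT against P2H2WT called 2 of 10 skeleton genes higher and 1 lower, and 2 of 15 surface genes higher. Of all 13593 genes in that fit, 502 were called higher and 364 lower. At an unadjusted p under 0.05 edgeR gave 7 of 10 skeleton and 5 of 15 surface genes, against 3620 of all genes. Add2, beta adducin, was higher by 0.42 ± 0.08 (adjusted p = 0.0249 by edgeR). Tpm3, a tropomyosin, was lower, at -0.27 ± 0.06 (0.0339), and of the surface list Art4 was higher by 0.44 ± 0.06 (0.0130) and Ermap by 0.30 ± 0.06 (0.0347).

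Paralogues of the members, used by other cells, were low or moderate. Sptbn1 and Sptan1 were at 226 ± 24.9 and 232 ± 28.4 CPM (SD, n = 16), and Slc4a2 was at 58.8 ± 3.79 CPM. Rhbg was at 0.00913 CPM, Ank2 at 0.682 CPM and Ank3 at 0.391 CPM. None of those tested was called in either knockout comparison. Epb41l3 had the smallest p in both, with -0.36 ± 0.12 in P2KO and -0.54 ± 0.22 in P2H2KO (SE, edgeR adjusted p = 1.0 in each). Between the controls 13 of 14 tested paralogues were higher in P2WT, with a median of 0.21 against -0.01 over all genes. At an unadjusted p under 0.05 edgeR gave 7 of 14, against 11.4% of all genes. Mme alone was called, against 1.22% of all genes, and was higher by 1.12 ± 0.17 (4.73 against 2.16 CPM, edgeR adjusted p = 0.0135). With the erythroid reference score as covariate 11 of 14 were positive, with a median of 0.26. In that fit 2 were called higher, against 3.69% of all genes.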

How the data were processed

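The authors deposited 2 tables of raw counts per Ensembl gene, 1 for each line, with 8 libraries in each and no normalization, per the file headers. HTSeq and mm10 are named in the submitters' processing notes. Versions, aligner, annotation and strand use are not given in the sources used here. Groups came from the labels. GENCODE M21 (GRCm38) gave symbols for 49326 of 49585 identifiers, and coordinates and lengths. Ahsp of the erythroid list was not used here. Promoters came from RefSeq GRCm38.p6.

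The members and lists were chosen with earlier results of these data known. All genes were fitted with edgeR 4.0.16 (filterByExpr, TMM, estimateDisp, robust glmQLFit, glmQLFTest) in R 4.3.3. Benjamini-Hochberg adjustment of two-sided p-values covered every tested gene, a call was an adjusted p under 0.05, and the procedure was tested on simulated data. CPM are relative to the TMM-scaled library size of all 16 libraries, and log2 CPM used a prior count of 2. Standard errors came from the F statistic. Correlations and ratios used exact two-sided permutation tests (scipy 1.17.1). Alternatives were other scalings and filters, DESeq2 1.42.0, covariates (suffix, title number, erythroid score), all libraries in 1 fit and leaving out each library. Ratios, and leave-one-out of the erythroid-score fit, were added after seeing the data. Named genes were all members, list genes called or with the smallest p, Egln1 and Epas1, and the 5 genes nearest to Slc4a1 and to Epb41, some of which are not reported here.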

Additional observations from a re-analysis of the deposited data

Results flagged for a closer look

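In groups of 4, a library was singled out when its gap to the nearest other library took more than 0.829 of the group's range. Of 64 groups of values 5 were singled out, and chance gives about 1 in 20 for a single group. The groups of values are not independent, because the members vary together and share the same libraries. The count therefore cannot be set against that rate. P2KO 6 was far below the other P2KO libraries for Slc4a1 (4543 CPM), Rhd (430.4 CPM) and Rhag (258 CPM). P2H2WT 18 was far above its group for Slc4a1 relative to the erythroid reference score (log2 ratio 1.07). P2H2WT 16 was far below its group for Epb42 relative to the score (log2 ratio -3.00).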

How the results depend on the processing

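No member was called with genotype under any alternative run, including each library left out. The counts of genes called moved more. P2KO against P2WT called 6 genes, 22 with DESeq2, 11 with the erythroid score as covariate and 10 with all 16 libraries in the fit. P2H2KO against P2H2WT called 10, 39 with DESeq2, 19 with the title number as covariate, and 6 to 9 with 1 library left out. P2WT against P2H2WT called 166, 87 with at least 10 counts in every library, 389 with DESeq2, 866 with the erythroid score, 32 with all 16 libraries in the fit, and 76 to 167 with 1 library left out. With the erythroid score and 1 library left out, that count was 47 to 1149 and 0 to 4 members were called, against 4. No paired analysis was possible because no replicate number is shared between groups. The cause of each shift was not tested.

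With the erythroid score as covariate, P2KO against P2WT gave 8 positive values with a median of 0.11. Of these 2, Sptb and Epb42, had an unadjusted p under 0.05 by edgeR, against 843 of 13734 genes. The same covariate gave 8 positive values in P2H2KO against P2H2WT, with a median of 0.11. For the difference of the effects it gave 3 positive and 5 negative values, with a median of -0.01. Signs of uncalled values turned as follows. In P2H2KO against P2H2WT the score gave 0.046 for Slc4a1, 0.18 for Ank1, 0.16 for Sptb, 0.14 for Epb41, 0.088 for Epb42, 0.062 for Rhd, 0.099 for Rhag and 0.12 for Kel. The suffix as covariate gave 0.082 for Ank1, 0.062 for Sptb and 0.032 for Epb41. In the difference of the effects the score gave -0.064 for Ank1, -0.016 for Sptb, -0.060 for Epb41, -0.0091 for Rhd and -0.051 for Rhag. In P2WT against P2H2WT it gave 0.086 for Slc4a1, 0.26 for Epb42, 0.10 for Rhd and 0.25 for Rhag, and the suffix gave 0.042 for Epb42. Leaving out 1 library gave, in P2H2KO against P2H2WT, -0.29 to 0.0044 for Slc4a1, -0.20 to 0.12 for Ank1, -0.22 to 0.10 for Sptb, -0.26 to 0.068 for Epb41, -0.34 to 0.033 for Epb42, -0.30 to 0.014 for Rhd, -0.30 to 0.034 for Rhag and -0.26 to 0.070 for Kel. It gave -0.015 to 0.23 for Epb41 in P2KO against P2WT. In P2WT against P2H2WT it gave -0.046 to 0.25 for Epb41, -0.18 to 0.066 for Epb42, -0.057 to 0.20 for Kel and -0.21 to 0.032 for Rhag. The ratio of Rhd to Slc4a1 between lines ran from -0.019 to 0.00066. Ank1 and Sptb relative to Slc4a1 stayed at 0.27 to 0.33 and 0.26 to 0.33, with an exact p of at most 0.000311.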
